A study of Mus musculus with 6 samples.

Results

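The genes described here carry or restrain death receptor signals to caspase-8 or to the necroptosis pore. The set holds 9 genes, chosen by name from the deposited expression table: Ripk1, Ripk3, Mlkl, Casp8, Fadd, Tradd, Cflar, Birc2 and Birc3. All 9 were among the 11789 genes of the table, and all 9 passed the minimum level for testing. RNA-seq was run on 6 libraries of alveolar macrophages, phagocytes that live in the air spaces of the lung. The mice were C57BL/6 and had all been exposed to an agent that the series title names only as BLM. The first group was 3 libraries of wild-type mice (columns BLM1, BLM2 and BLM3), and the second was 3 libraries of mice with a conditional knockout of A20 (columns A20-1, A20-3 and A20-4). Both groups thus had the exposure, and no unexposed sample was analysed here. Dose, time after exposure, age, the exons deleted and the cells in which Cre acted are not stated in the labels. Nor do they say if each library is a single mouse or several, so the p-values cover only how these libraries vary, which may be technical. Sets of 3 values below follow the order A20-1, A20-3, A20-4 for the knockout and BLM1, BLM2, BLM3 for the wild type.

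When tumour necrosis factor binds its receptor, adaptor proteins gather RIPK1 and ubiquitin ligases at the membrane, where ubiquitin chains favour survival signals. If these chains are lost, RIPK1 can join FADD and caspase-8 and start apoptosis. If caspase-8 is held inactive, RIPK1 can instead activate RIPK3, which phosphorylates MLKL, and MLKL breaks the plasma membrane in necroptosis. A20, encoded by Tnfaip3, edits ubiquitin on RIPK1 and on RIPK3, which is why these genes are of interest in an A20 knockout. The proteins are governed largely by phosphorylation, cleavage and ubiquitin, none of which RNA-seq measures.

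Values are FPKM, fragment counts that the authors scaled by transcript length and library size, so they may be set side by side between genes. The read depth is unknown, since the table holds no counts, and no counting interval is given. Each difference is the knockout mean minus the wild-type mean of log2(FPKM + 1), a scale that compresses the changes of low genes. They were tested with limma across 10696 genes, with Benjamini-Hochberg adjustment over all of them and a threshold of 0.05. Alveolar macrophage markers were abundant as a sum in every library (summed FPKM of 12 markers 3971 to 7858, lowest in BLM3). Chil3 made up most of these sums (2998 to 5471). Krt79, Fabp1, Pparg, Ear2 and Plet1 were higher in all knockout libraries, Marco was lower in all of them, and the rest overlapped. Krt79 was at 17.8 to 37.9 FPKM in the knockout libraries, 3.69 in BLM1, 8.84 in BLM2 and 0.972 in BLM3. Library BLM3 stood apart from the rest on the first principal component (56.6% of the variance). It also held neutrophil transcripts, with a summed FPKM of 2770 over the 7 of 9 markers in the table, against 82.9 to 149 in the other 5 libraries. Ly6g, a defining neutrophil marker, was at 2.25 FPKM in BLM3, 0.0752 in A20-1 and 0 in the other 4 libraries. Tnfaip3, the targeted gene, was at 8.44, 12.9 and 6.80 FPKM in the knockout libraries and at 4.47, 2.18 and 21.6 in the wild-type libraries. Its level does not show the deletion, so each direction below is one between libraries as labelled.

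No death receptor or necroptosis gene of the set differed between the groups past the threshold. Of the 9 genes, 0 rose and 0 fell (limma, adjusted p under 0.05), where 0.252% of all genes tested rose and 0.851% fell. At an unadjusted p under 0.05 there was 1 of 9, Mlkl, against 20.3% of all genes tested. Without BLM3 the counts were again 0 rises and 0 falls, while 1.35% and 2.50% of all genes rose and fell. Differences were negative for 6 genes and positive for 3, with a median of -0.18, and the median over all genes tested was 0.02. Without BLM3 the median of the 9 was -0.06. For 8 of the 9 genes the 95% interval of the difference lay within 2-fold in either direction on this scale, and Birc3 was the exception. In bulk samples such as these, a difference in the RNA per cell and one in the share of cells of a type cannot be told apart.

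**Figure D1:**
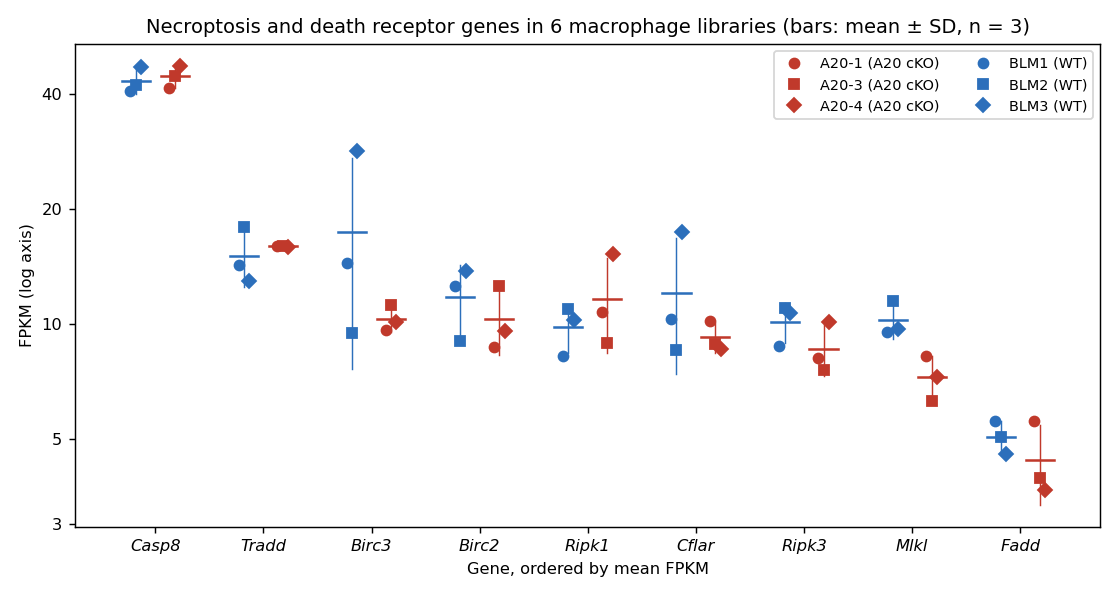
FPKM of the 9 genes (log axis) in each library, wild type in blue and knockout in red, with horizontal bars at the group means and vertical bars of 1 SD (n = 3). Casp8 lies between 40.6 and 47.1 in all libraries, Birc3 and Cflar are highest in BLM3, and Mlkl is the one gene whose groups do not overlap.

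Casp8 was the most abundant of the set and Fadd the least. Over the 6 libraries Casp8 had a mean of 43.8 FPKM, above 91.5% of the genes in the table, and Fadd had 4.73, above 39.7%. Casp8 exceeded the next gene, Tradd (15.5), in 6 of 6 libraries with no overlap of their ranges, and Mlkl (8.74) exceeded Fadd in the same way. The 7 genes from Tradd to Mlkl came in the order Tradd, Birc3 (13.9), Birc2 (11.0), Ripk1 (10.7), Cflar (10.6), Ripk3 (9.37) and Mlkl. Each neighbouring pair among these 7 had overlapping ranges, so that order was not resolved.

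Tradd and Fadd encode the adaptors, which link the receptors to RIPK1 and to caspase-8. Tradd (ENSMUSG00000031887.13, GRCm38 chr8:105258286-105264609, minus strand) was at 16.0, 16.0 and 15.8 FPKM in the knockout libraries and at 14.2, 18.0 and 12.95 in the wild-type libraries. The knockout libraries lay inside the wild-type range, and the difference was 0.09 (95% interval -0.23 to 0.41, limma adjusted p = 0.732). Fadd (ENSMUSG00000031077.7, chr7:144577318-144582463, minus strand) was at 5.59, 3.94 and 3.67 FPKM in the knockout and 5.56, 5.07 and 4.56 in the wild-type libraries. A20-1 had the highest Fadd value of all libraries while A20-3 and A20-4 had the lowest 2, so the groups overlapped. The Fadd difference was -0.18 (95% interval -0.56 to 0.20, limma adjusted p = 0.547).

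Ripk1 encodes the kinase that acts as both a scaffold for survival signals and a trigger of death. Ripk1 (ENSMUSG00000021408.15, chr13:34002363-34037147, plus strand) was at 10.7, 8.91 and 15.3 FPKM in the knockout libraries and at 8.25, 11.0 and 10.2 in the wild-type libraries. The groups overlapped, with A20-4 the highest library and BLM1 the lowest. The difference was 0.20 (95% interval -0.29 to 0.69, limma adjusted p = 0.603), and without A20-4 it was 0.00 (adjusted p = 0.993).

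Ripk3 encodes the kinase that phosphorylates MLKL. Ripk3 (ENSMUSG00000022221.14, chr14:55784995-55788865, minus strand) was at 8.15, 7.57 and 10.1 FPKM in the knockout and 8.72, 11.0 and 10.6 in the wild-type libraries. A20-1 and A20-3 were the lowest 2 libraries, and A20-4 lay above BLM1, so the groups overlapped. The Ripk3 difference was -0.21 (95% interval -0.56 to 0.13, limma adjusted p = 0.428). Its interval therefore reached from 0.680 to 1.09 times the wild-type value of FPKM + 1.

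Mlkl encodes the pseudokinase that forms the membrane lesion, the last step of necroptosis. Mlkl (ENSMUSG00000012519.14, chr8:111311797-111338177, minus strand) was at 8.23, 6.27 and 7.26 FPKM in the knockout libraries and at 9.51, 11.5 and 9.67 in the wild-type libraries. All 3 knockout values lay under all 3 wild-type values, with means of 7.25 ± 0.980 and 10.2 ± 1.10 (SD, n = 3 each). Such a gap is common in these libraries, since the groups did not overlap for 29.0% of all genes tested, made up of 13.1% with the knockout lower and 15.9% with it higher. The difference was -0.45 ± 0.13 (SE, 95% interval -0.76 to -0.13) and missed the threshold with a limma adjusted p of 0.142. Permuting the 6 FPKM values (exact, two-sided) gave p = 0.1, the smallest possible for 3 against 3. Without BLM3 the difference was -0.48 (limma adjusted p = 0.123), and over all single libraries left out it ran from -0.53 to -0.36. With array weights, which let limma weight each library by its fit, Mlkl passed the threshold (-0.38, adjusted p = 0.0457). That fit weighted BLM1 at 6.09 and BLM3 at 0.229, and 9.27% of all genes fell in it.

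Of 9 cell type marker lists, 3 had sums that separated the groups in the direction of Mlkl. Monocyte and recruited macrophage markers, all 10 in the table, had summed FPKM of 425 to 500 in the knockout and 1294 to 1477 in the wild-type libraries. Apoe and C1qa made up most of these sums, and Cx3cr1 overlapped between the groups (3.43 to 7.32 and 2.45 to 3.79 FPKM). Fcgr1 (29.9 to 36.4 and 35.9 to 51.5 FPKM) and Ly6c2 (3.03 to 4.93 and 4.92 to 41.3 FPKM) overlapped narrowly. Dendritic cell markers, 6 of 6 in the table, summed to 31.9 to 39.9 in the knockout and 49.6 to 77.4 in the wild-type libraries. Ccr7 made up most of these sums and was lower in all knockout libraries. Flt3, Clec9a, Zbtb46, Cd209a and Xcr1 overlapped between the groups, and all but Xcr1 were lower in BLM3 than in every knockout library. Neutrophil markers summed to 82.9 to 129 and 139.5 to 2770, the last of these in BLM3. Outside BLM3 the gap rested mostly on S100a8, which was at 82.56 FPKM in BLM1, 77.98 in BLM2 and lower in all knockout libraries. Cxcr2 and S100a9 were also lower in all knockout libraries, S100a9 narrowly (24.24 FPKM in A20-3 and 24.78 in BLM1). Csf3r, Mmp8, Retnlg and Ly6g overlapped between the groups, and Mmp8 in BLM1 lay below every knockout library. Lung epithelial markers separated the groups the other way, with sums over 7 markers of 275 to 368 in the knockout and 62.9 to 189 in the wild-type libraries. Those sums rested mostly on Scgb1a1 and Sftpc. Scgb1a1 was higher in all knockout libraries, but narrowly (111.6 FPKM in A20-4 and 111.4 in BLM2). Epcam was also higher in all of them (12.4 to 21.4 and 4.2 to 9.9 FPKM). Sftpc, Sftpa1 and Sftpb overlapped between the groups. Krt18 (3.91 to 5.61 and 10.02 to 20.6 FPKM) and Krt8 (3.40 to 5.60 and 6.57 to 15.7 FPKM) were lower in all knockout libraries. The part of these markers in the Mlkl values was not tested.

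The bases before the RefSeq start site of Mlkl are shown because Mlkl was the member whose groups did not overlap (GRCm38.p6, chr8:111338206-111338455, minus strand, 5′ to 3′, outside annotated exons).
Mlkl: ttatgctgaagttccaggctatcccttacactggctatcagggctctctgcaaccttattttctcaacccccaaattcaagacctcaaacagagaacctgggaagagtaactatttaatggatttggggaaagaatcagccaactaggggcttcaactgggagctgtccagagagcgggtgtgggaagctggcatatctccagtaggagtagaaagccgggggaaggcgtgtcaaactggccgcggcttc
No capitals appear, because none of the motifs searched occurred in it. Of the 3 motifs, the first was GGG, any 2 bases and TTTCC, and the second GGG, any 3 bases and TTCC, which takes in every match of the first. Both resemble NF-kB sites. The third was TTTC, any 2 bases and TTTC, the core of an interferon response element. They were sought on both strands in RefSeq windows from 250 bases before to 50 after each start site. No match says only that these letters are not in this window.

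Casp8 encodes the protease that starts apoptosis and cleaves RIPK1 and RIPK3, and it was the steadiest of the 9 genes. Casp8 (ENSMUSG00000026029.14, chr1:58795374-58847503, plus strand) was at 41.4, 44.5 and 47.1 FPKM in the knockout libraries and at 40.6, 42.1 and 47.0 in the wild-type libraries. The groups overlapped almost fully, and the highest library was 1.16 times the lowest. The difference was 0.04 (95% interval -0.22 to 0.29, limma adjusted p = 0.869), which on this scale allows 0.859 to 1.23 times the wild-type value.

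Cflar encodes c-FLIP, a catalytically inactive relative of caspase-8 that restrains it, and lies 36489 bases upstream of Casp8 on the same strand. Cflar (ENSMUSG00000026031.15, chr1:58711508-58758884) was at 10.2, 8.85 and 8.62 FPKM in the knockout libraries and at 10.3, 8.54 and 17.4 in the wild-type libraries. BLM3 was the one high library, and the other 5 lay between 8.54 and 10.3 with the groups overlapping. The difference was -0.30 (95% interval -0.88 to 0.28, limma adjusted p = 0.511). Without BLM3 it was -0.03 (95% interval -0.34 to 0.29, adjusted p = 0.925).

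Birc2 and Birc3 encode cIAP1 and cIAP2, the ligases that place ubiquitin on RIPK1, and lie 11634 bases apart on the minus strand of chromosome 9. Birc2 (ENSMUSG00000057367.12, chr9:7818227-7837064) was at 8.71, 12.6 and 9.59 FPKM in the knockout and 12.5, 9.0 and 13.7 in the wild-type libraries. The groups overlapped, and the difference was -0.17 (95% interval -0.64 to 0.29, limma adjusted p = 0.641). Birc3 (ENSMUSG00000032000.17, chr9:7848699-7873186) was at 9.66, 11.2 and 10.1 FPKM in the knockout libraries and at 14.4, 9.48 and 28.3 in the wild-type libraries. Birc3 varied most of the 9 genes, with BLM3 at 2.99 times BLM2, and BLM2 lay below all 3 knockout libraries. The Birc3 difference was -0.57 (95% interval -1.41 to 0.27, limma adjusted p = 0.391), and without BLM3 it was -0.17 (95% interval -0.60 to 0.26, adjusted p = 0.603). Birc2 and Birc3 are close paralogs, so their values are uncertain where reads could be split between them.

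**Figure D2:**
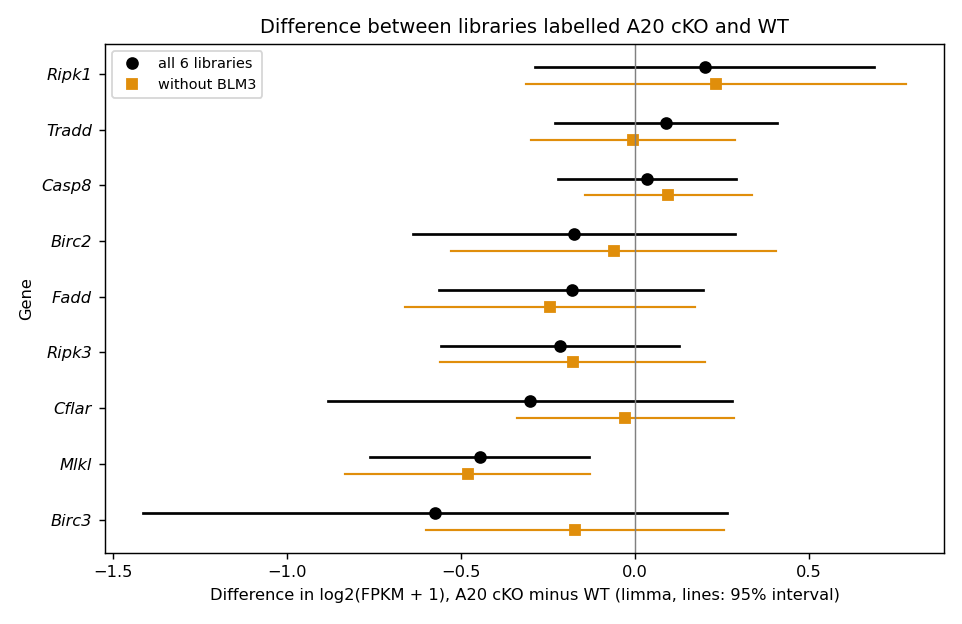
Difference in log2(FPKM + 1), knockout minus wild type, for each gene with its 95% interval from limma, for all 6 libraries (black) and without BLM3 (orange). The Mlkl interval lies below 0 in both fits, and the Birc3 and Cflar estimates move from -0.57 and -0.30 to -0.17 and -0.03 without BLM3.

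The high values of Birc3 and Cflar in BLM3 came with other transcripts that were high there. On the log2(FPKM + 1) scale, BLM3 lay above the mean of BLM1 and BLM2 by 1.21 for Birc3, by 0.82 for Cflar and by 0.34 for Birc2, against a median of 0.01 over all genes tested. The other 6 members lay between -0.28 (Tradd) and 0.18 (Casp8). A list of 10 NF-kB feedback genes, which NF-kB induces, had a median of 0.67 in BLM3 on this measure and of -0.11 to -0.05 in the 3 knockout libraries. The median of 10 interferon-stimulated genes was 2.28 in BLM3 and -1.08 to -0.30 in the knockout libraries. The sum of the neutrophil markers given above was also highest in BLM3. The part of these lists in the Birc3 and Cflar values was not tested, and with 1 such library no spread can be given.

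**Figure D3:**
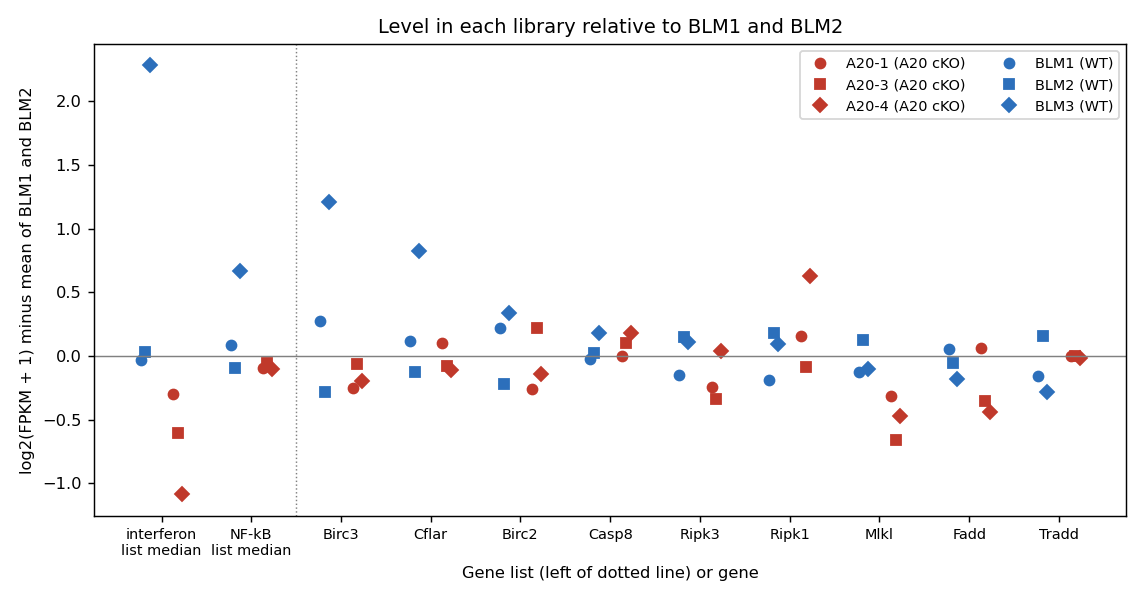
Level of each gene, or median of each gene list, in every library minus the mean of BLM1 and BLM2, on the log2(FPKM + 1) scale. BLM3 (blue diamond) stands at 2.28 for the interferon list, 1.21 for Birc3 and 0.82 for Cflar, while Ripk3, Ripk1, Mlkl, Casp8, Fadd and Tradd have BLM3 between -0.28 and 0.18.

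The upstream bases of these 2 members highest in BLM3 are shown for comparison, from RefSeq (GRCm38.p6). Cflar is given from chr1:58711241-58711506 on the plus strand and Birc3 from chr9:7873187-7873420 on the minus strand, both 5′ to 3′, with capitals for a match to the interferon response element core.
Cflar: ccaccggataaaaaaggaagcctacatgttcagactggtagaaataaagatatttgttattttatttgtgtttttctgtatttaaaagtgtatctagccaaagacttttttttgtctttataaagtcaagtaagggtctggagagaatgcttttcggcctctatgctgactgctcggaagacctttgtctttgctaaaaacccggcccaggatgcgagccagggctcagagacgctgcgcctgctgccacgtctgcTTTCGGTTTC
Birc3: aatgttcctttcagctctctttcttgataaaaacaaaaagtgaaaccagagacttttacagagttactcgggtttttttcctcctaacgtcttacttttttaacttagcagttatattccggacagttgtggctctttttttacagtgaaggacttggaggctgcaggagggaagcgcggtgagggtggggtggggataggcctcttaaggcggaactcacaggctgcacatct
The Cflar match, TTTCGGTTTC, begins 6 bases after the RefSeq start site. The Birc3 window held none of the 3 motifs. Windows were found for 8 of the 9 genes, 10 windows in all, with none for Tradd. The interferon core was in 2 of these 10, the other being a second start site of Ripk1 (GAAATCGAAA, the reverse strand form), and in 3.44% of all 32851 windows of that length. The first and second NF-kB-like motifs were in 0 of the 10, and in 1.63% and 5.56% of all windows. A match describes the sequence only and is not a site of binding.

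Levels within 4 pairs of the pathway were compared library by library, as the log2(FPKM + 1) of one gene minus that of its partner. Ripk3 against Ripk1, the 2 kinases of the necroptosis complex, separated the groups. This measure was -0.36, -0.21 and -0.55 in the knockout libraries and 0.07, 0.01 and 0.05 in the wild-type libraries. All 3 knockout libraries thus had less Ripk3 than Ripk1, and the wild-type libraries had both at nearly equal levels. The means were -0.37 ± 0.17 and 0.04 ± 0.03 (SD, n = 3), a difference of -0.42. A two-sided exact permutation gave p = 0.1, the smallest it allows, or 0.2 adjusted over the 4 pairs. The share of all gene pairs that separate the groups was not computed, and single genes did so for 29.0% of those tested. Leaving out single libraries moved the difference between -0.50 and -0.33.

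The other pairs overlapped between the groups. Cflar against Casp8, the brake against the protease, was -1.92, -2.21 and -2.32 in the knockout and -1.88, -2.18 and -1.38 in the wild-type libraries (difference -0.34, exact permutation p = 0.2), and without BLM3 the difference was -0.12. Mlkl against Ripk3 was 0.01, -0.24 and -0.42 in the knockout and 0.11, 0.06 and -0.13 in the wild-type libraries (difference -0.23, exact permutation p = 0.2). Birc3 against Birc2 was 0.14, -0.16 and 0.07 in the knockout and 0.19, 0.07 and 0.99 in the wild-type libraries (difference -0.40, exact permutation p = 0.2), or -0.11 without BLM3. Adjusted over the 4 pairs, each of these p-values was 0.2.

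**Figure D4:**
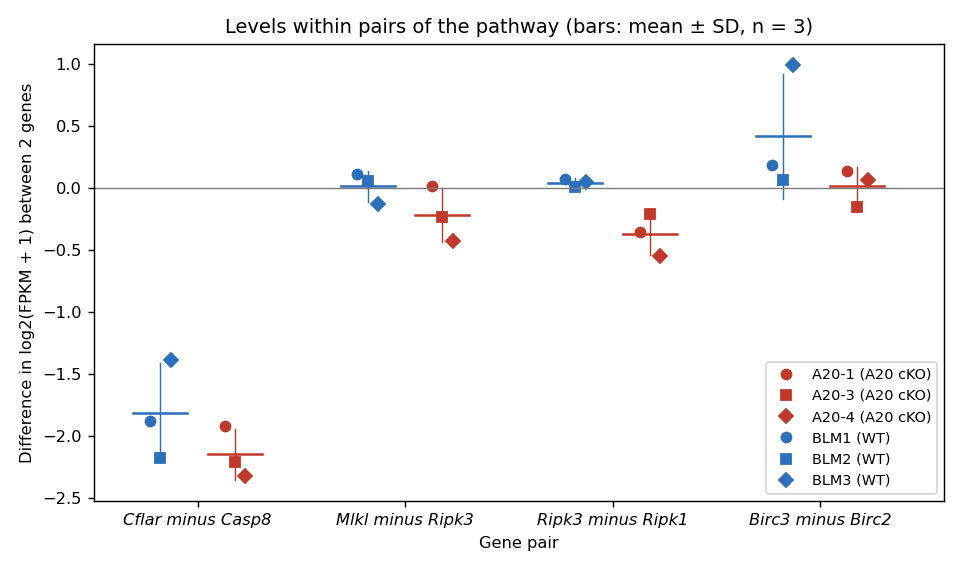
Difference in log2(FPKM + 1) between the 2 genes of each pair in every library, with group means and 1 SD (n = 3), wild type in blue and knockout in red. Ripk3 minus Ripk1 is the pair in which all knockout libraries (-0.55 to -0.21) lie below all wild-type libraries (0.01 to 0.07).

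The wider pathway was followed in 7 lists of 89 genes by role, of which 87 were tested, and 1 gene rose and 0 fell over all of them. Over all genes tested, 0.252% rose, 0.851% fell and 20.3% had an unadjusted p under 0.05. Of the 7 lists, only the death receptors and ligands had a larger share than this at an unadjusted p under 0.05, as a description with no test. The gene that rose was Fasl, among death receptors and ligands (1 rise and 0 falls of 10 tested, median difference -0.11, 4 at an unadjusted p under 0.05). Fasl encodes Fas ligand, which cytotoxic lymphocytes use to kill target cells through Fas. It was at 5.04, 6.07 and 6.71 FPKM in the knockout libraries and at 2.81, 1.95 and 2.42 in the wild-type libraries. All 3 knockout values lay above all 3 wild-type values, and the difference was 1.03 ± 0.15 (SE, limma adjusted p = 0.0373). Fasl passed without BLM3 (adjusted p = 0.0318) but not without any one of the other 5 libraries (adjusted p 0.0653 to 0.160). T and NK cell markers, 8 of 9 in the table, summed to 106 to 131 FPKM in the knockout libraries, 96.5 in BLM1, 81.5 in BLM2 and 237 in BLM3. These sums were higher in all knockout libraries than in BLM1 and BLM2, as was Fasl. The sum was highest in BLM3, whereas Fasl in BLM3 (2.42 FPKM) lay below every knockout library. Nkg7 alone of the 8 markers followed the order of the sums, at 43.5 to 51.8 FPKM in the knockout, 27.8 in BLM1, 27.9 in BLM2 and 64.5 in BLM3. Cd3d, Cd3e and Cd3g were higher in BLM1 than in every knockout library, and Gzma in BLM2 lay inside the knockout range. Gzmb in A20-1 (6.0 FPKM) lay below BLM2 (6.23 FPKM). Klrb1c in BLM1 lay inside the knockout range. Ncr1 in A20-4 (0.265 FPKM) lay below BLM1 (0.481 FPKM) and BLM2 (0.516 FPKM). The part of lymphocytes in the Fasl values was not tested.

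The receptors and triggers named next were chosen for their role after values were seen. Tnfrsf1a, the tumour necrosis factor receptor with a death domain, had 72.9 ± 2.24 FPKM in the knockout and 69.0 ± 6.52 in the wild-type libraries (SD, n = 3 each, difference 0.08, limma adjusted p = 0.697). Fas was at 11.3, 14.3 and 12.6 FPKM in the knockout libraries and at 9.35, 10.5 and 24.8 in the wild-type libraries (adjusted p = 0.902). Zbp1, the nucleic acid sensor that can activate RIPK3, was at 12.0, 8.38 and 7.22 FPKM in the knockout and 8.39, 11.3 and 36.9 in the wild-type libraries (adjusted p = 0.463). Fas and Zbp1, like Birc3 and Cflar, had BLM3 as their one high library. Ticam1, the adaptor TRIF through which Toll-like receptors reach RIPK3, had 7.48 ± 1.27 and 7.60 ± 0.984 FPKM (difference -0.02, adjusted p = 0.941).

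In the list of TNF receptor complex I, which holds ubiquitin and kinase genes, 0 of 23 rose or fell (limma, 4 at an unadjusted p under 0.05, median -0.14). The 2 genes of smallest p were Tab1 and Otulin. Tab1, which activates the kinase TAK1, had 5.35 ± 0.192 FPKM in the knockout and 7.87 ± 0.585 in the wild-type libraries (SD, n = 3 each, difference -0.48 ± 0.10 SE, limma adjusted p = 0.0829). Otulin, which removes linear ubiquitin chains, had 16.4 ± 0.970 and 22.0 ± 2.62 FPKM (-0.40 ± 0.12 SE, adjusted p = 0.139). Both had groups that did not overlap, as had 29.0% of all genes tested.

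Of 15 other inputs and regulators of necroptosis, 0 rose or fell (limma, 2 at an unadjusted p under 0.05, median -0.04). The smallest p belonged to 2 chaperone genes. Fkbp4, a co-chaperone of HSP90, was at 35.4, 55.8 and 52.8 FPKM in the knockout and 24.0, 26.4 and 19.0 in the wild-type libraries (difference 1.01 ± 0.21 SE, limma adjusted p = 0.0829). Hsp90ab1, the constitutive HSP90 on which RIPK1, RIPK3 and MLKL depend as client proteins, was at 334, 538 and 530 FPKM in the knockout and 298, 299 and 276 in the wild-type libraries (0.65 ± 0.20 SE, adjusted p = 0.155). In both genes A20-1 was the lowest of the knockout libraries and still above every wild-type library, and the groups did not overlap with the knockout higher for 15.9% of all genes tested.

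Membrane repair genes, whose products act on membrane damaged by MLKL, had 0 of 10 called (limma, 2 at an unadjusted p under 0.05, median -0.08). Flot1, a flotillin, was at 13.5, 14.9 and 14.7 FPKM in the knockout and 17.2, 18.6 and 29.0 in the wild-type libraries, with BLM3 the highest. Its difference was -0.52 ± 0.20 (SE, limma adjusted p = 0.208), or -0.30 without BLM3 (adjusted p = 0.149). Pdcd6ip, the ESCRT partner ALIX, was at 48.3, 42.5 and 45.3 FPKM in the knockout and 38.6, 39.0 and 32.0 in the wild-type libraries (0.31 ± 0.12 SE, adjusted p = 0.213). Groups did not overlap for either gene, as for 29.0% of all genes tested. Caspases and mitochondrial apoptosis genes had 0 of 17 called (1 at an unadjusted p under 0.05, median -0.03). Among them Apaf1, the apoptosome scaffold, had a difference of 0.59 ± 0.24 (SE, limma adjusted p = 0.244), or 0.35 without A20-1. Bid, the caspase-8 substrate that carries the signal to mitochondria, was at 4.06, 5.88 and 5.80 FPKM in the knockout and 6.29, 5.78 and 9.33 in the wild-type libraries, which overlapped. Its difference was -0.37 ± 0.20 (SE, adjusted p = 0.349), or -0.185 without BLM3 and -0.23 without A20-1.

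The survival BCL2 family list, which also held 2 further BIRC genes, had 0 of 8 called (limma, 1 at an unadjusted p under 0.05, median -0.11). Bcl2a1b had a difference of -0.47 ± 0.12 and Birc6 of 0.34 ± 0.17 (SE, limma adjusted p = 0.118 and 0.303). Without BLM2 the Birc6 difference was 0.20. Bcl2a1b has near-identical paralogs between which reads could be split. The pyroptosis list, another form of lytic death, had 0 of 4 called and 0 at an unadjusted p under 0.05 (limma, median -0.18). Ninj1, which ruptures the membrane late in lytic death, was at 6.43, 10.4 and 13.2 FPKM in the knockout and 12.6, 15.2 and 43.2 in the wild-type libraries (adjusted p = 0.289). Casp4, a sensor of bacterial lipopolysaccharide, had BLM3 at 20.01 FPKM and the other 5 libraries between 7.60 and 9.33 (adjusted p = 0.589).

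**Figure D5:**
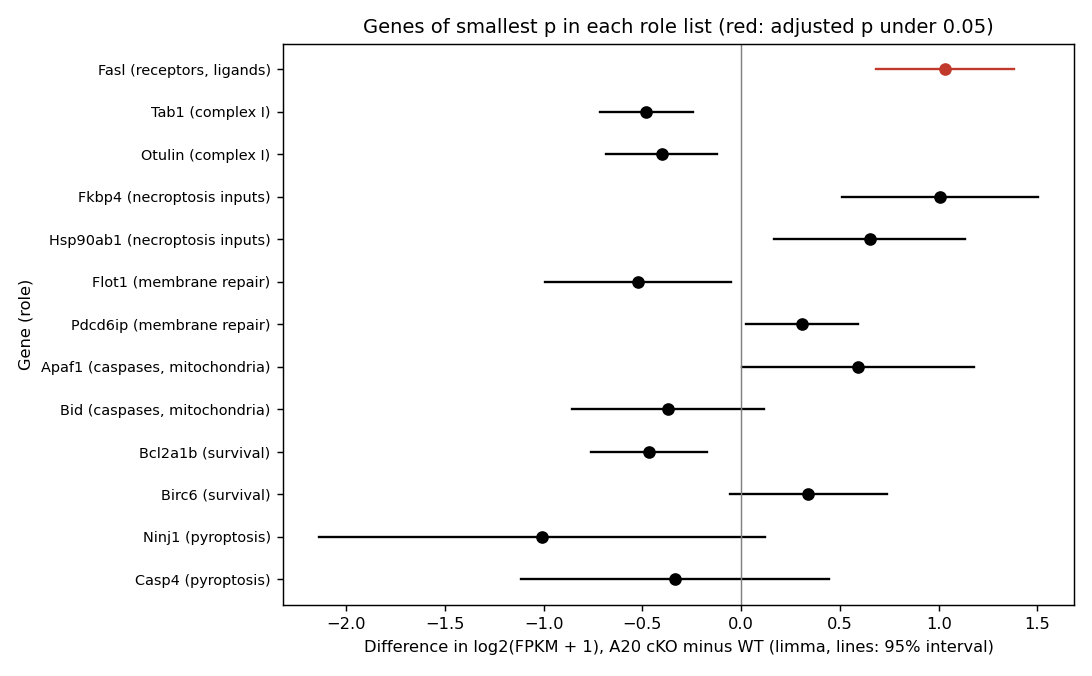
Difference in log2(FPKM + 1), knockout minus wild type, with 95% intervals from limma, for the called gene or else the 2 genes of smallest p in each role list. Fasl (red) is the gene past the adjusted threshold, at 1.03.

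Genes with the most similar course over the 6 libraries were sought among the other 10695 tested genes, as a description with no test. The 3 closest to Mlkl by Pearson correlation of log2(FPKM + 1) were Mrpl43 (0.995), Tmem106a (0.993) and Eng (0.987). For Ripk3 they were Rars (0.984), Hnrnpd (0.982) and Flvcr1 (0.977), and for Casp8 they were Nubp1 (0.992), Adh5 (0.991) and Fam50a (0.989). Of these 9 genes, 0 passed the threshold between the groups. They were picked for following Ripk3, Mlkl and Casp8, which did not pass either, so this is not a separate result. Every such correlation rests on the same 6 libraries, with their shared depth and cell makeup.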

How the data were processed

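The authors deposited 1 table of FPKM, per the file headers, with 1 value per gene and library and all genes of protein-coding type. The submitters' processing notes name GRCm38. Libraries came from Trizol RNA with a stranded kit (KAPA, input 1 ug), per the labels' protocols. How the cells were isolated, and which aligner, counting program and strand setting were used, was not given in the sources used here. Columns named for A20 were taken as knockout and those named only for BLM as wild type, and since the A20 column numbers do not follow the title replicates, columns were matched to groups only. Among 411 genes below 1 FPKM, at most 3 shared a ratio between any 2 libraries, so whole reads could not be recovered. Sums of FPKM ran from 266094 to 294525.

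The 10696 genes whose mean FPKM reached 1 (1093 did not) were tested on log2(FPKM + 1) with limma 3.58.1 in R 4.3.3 (lmFit, eBayes with a trend, two-sided, Benjamini-Hochberg), after testing the fit on simulated data. The threshold of 0.05 applied to p adjusted over all genes tested. Alternatives were the pseudocount, the minimum, TPM, quantile normalization, array weights, no trend and leaving out each library. The genes, lists, pairs and motifs were chosen with earlier results of these data known. Genes named are the 9, and in each role list those past the threshold or else the 2 of smallest p, plus the 3 most similar to Ripk3, Mlkl and Casp8. Others were named for their role or after their values were seen, as marked where they appear, or as markers. Loci had the same coordinates in GENCODE M21.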

Additional observations from a re-analysis of the deposited data

How the results depend on the processing

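No gene of the 9 passed the threshold when any single library was left out, and the numbers risen and fallen were then 0 in each case (limma). Of 125 values of single genes of the set under 14 alternatives, 124 stayed on the same side of the threshold. The exception was Mlkl with array weights (-0.38, adjusted p = 0.0457), where the number of the 9 that fell was 1. The sign changed in 3 values, all within 0.01 of 0: Casp8 without A20-4 or BLM1, and Tradd without BLM3. Fadd was not tested at a minimum mean FPKM of 5. Counts over all genes moved more. As deposited, 27 rose and 91 fell. With the minimum at 5, 17 rose and 58 fell among fewer genes, Fasl was not tested, and 0 death receptors and ligands rose. After rescaling to TPM 41 rose and 64 fell, and the median of all genes moved from 0.02 to 0.10. With array weights 942 rose and 992 fell, including 2 rises and 3 falls in the list of death receptors and ligands, 3 falls in complex I, 2 rises among necroptosis inputs, 1 fall in membrane repair, 1 rise in caspases and mitochondrial apoptosis, and 1 rise and 1 fall in the survival list, and the cause was not tested. Leaving out 1 library gave 0 to 144 rises and 0 to 267 falls over all genes, and 0 to 1 rises among death receptors and ligands. Without A20-3 both counts were 0 (limma, with 1694 genes at an unadjusted p under 0.05), and without BLM3 they were highest. Fits with 5 libraries also have less information, so losing a call there does not show a smaller difference. No paired analysis was possible because A20-1, A20-3 and A20-4 do not follow the replicate numbers of the knockout titles, so columns could be matched to groups but not to numbered replicates. The read depth is unknown, and 3 libraries a group limit every interval.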

Other observations

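The genes around the set given here were chosen after their values were seen, and some of them had 1 library or more far from the others. Xiap, which encodes an inhibitor of caspases and partner of the cIAP proteins, was at 3.17 FPKM in A20-4, against 15.8 in A20-1, 15.0 in A20-3 and 13.2, 12.3 and 12.7 in the wild-type libraries. Tlr4, the lipopolysaccharide receptor, was at 9.74 FPKM in A20-1 and 14.3 in BLM3, with the other 4 libraries between 1.92 and 3.61. Apaf1 was at 8.33 FPKM in A20-1, while A20-3 and A20-4 had 3.78 and 5.64 and the wild-type libraries 2.94 to 3.91. Tnf itself was at 75.2 FPKM in BLM3, 12.4 in BLM1, 8.47 in BLM2, and 4.84, 5.59 and 2.35 in A20-1, A20-3 and A20-4 (limma adjusted p = 0.202, or 0.0947 without BLM3). Its receptor Tnfrsf1b had 171 ± 14.0 and 188 ± 18.2 FPKM (SD, n = 3 each, adjusted p = 0.588), and the survival gene Mcl1, which holds back mitochondrial apoptosis, 313 ± 57.5 and 234 ± 65.7 (adjusted p = 0.338) in knockout and wild-type libraries.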
